A study of Mus musculus with 24 samples.

Results

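The 6 libraries labelled SST were set against the 18 libraries labelled EXC, PV or VIP to find the genes whose level separates SST from every other library. A gene was counted as private to SST when its lowest SST library lay above all 18 others, or its highest SST library below all 18, in CPM, the reads of a gene per 1000000 counted reads of its library. Of 36528 genes listed, 14890 had enough reads to be tested, and 244 of these lay above all 18 and 12 below. Each library holds RNA of neurons from the cortex of adult mice, dissociated with papain and sorted alive, that is negative for the dye DAPI, by GFP or tdTomato from a transgenic reporter line. The labels do not name the lines, their drivers, the strain or the exact age, do not spell out EXC, PV, SST and VIP, and do not say how many animals gave a library. SST has 4 male and 2 female libraries (replicates 4 and 6), EXC 4 and 2, PV 3 and 3, and VIP 2 and 4. No group received a treatment in the labels.

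Somatostatin interneurons are inhibitory neurons of the cortex that release GABA together with the peptide somatostatin. Many of them, the Martinotti cells, send axons to the outermost layer and contact the distal dendrites of pyramidal cells, and a rarer type with long axons contains nitric oxide synthase and neuropeptide Y. They and the parvalbumin interneurons arise from the medial ganglionic eminence of the embryo, whereas interneurons with vasoactive intestinal peptide (VIP) arise from the caudal ganglionic eminence and largely contact somatostatin cells.

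Total counts ran from 5508099 to 15978459 in SST, 4370732 to 8504337 in EXC, 1548907 to 4653119 in PV and 4528457 to 7755954 in VIP. Reads of mitochondrially encoded genes took 4.406% to 7.867% of an SST library and 14.379% to 52.884% of a PV library, which lowers the CPM of every other gene in PV. Scaling by TMM, a normalisation that uses the bulk of the genes, moved SST levels relative to PV by -0.54 on the log2 scale compared with raw CPM. This value compares the median scaling factors of the SST and PV libraries. All PV and 5 EXC libraries are from the sequencing pool POOL6188, 5 SST libraries and VIP replicates 1 and 3 from POOL7098, SST replicate 5 from POOL7100, and the others from POOL7099. SST thus shares a pool with VIP alone, and the 2 can be compared inside POOL7098. EXC and PV are linked to SST only through VIP and EXC replicate 3, so values with the pool as a covariate rest on those few libraries. The summed level of 30 SST interneuron markers was 5843 to 6975 CPM in SST and did not exceed 2341 CPM in the others. Pvalb, Vip and Slc17a7, which mark the PV, VIP and excitatory sorts, had SST medians of 3.49, 1.61 and 48.3 CPM. Slc17a7, the vesicular glutamate transporter, stood at 24.9 to 65.4 CPM in SST and 175 to 816 in EXC, against at most 18.9 in PV and a median of 5.21 in VIP, whose highest library reached the lowest SST level. Inside POOL7098 it was higher in SST than in VIP by 4.73 on the log2 scale (adjusted p = 2.45e-07). Against PV, its difference in the edgeR fit of all 24 libraries did not pass (1.14 on the log2 scale, adjusted p = 0.0908).

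The sequence shown first is the stretch just before the start of the Sst gene, because its cAMP response element, the palindrome TGACGTCA, is the textbook binding site of the factor CREB and Sst names the sort. Windows of at most 60 bases that end at or before the annotated start follow for 4 other genes above all 18 whose promoters hold the same letters: Th (tyrosine hydroxylase), Kctd8 (an auxiliary subunit of GABA-B receptors), Zdbf2 (an imprinted gene) and Zwint (a kinetochore protein). Sequences are from RefSeq, build GRCm38.p6, written 5′ to 3′ on the strand of the gene, with the element in capitals.
Sst (chr16:23890859-23890918, minus strand): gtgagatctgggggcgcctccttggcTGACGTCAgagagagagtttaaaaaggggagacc
Th (chr7:142900007-142900066, minus strand): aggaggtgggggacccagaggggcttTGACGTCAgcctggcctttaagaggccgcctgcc
Kctd8 (chr5:69341710-69341763, minus strand): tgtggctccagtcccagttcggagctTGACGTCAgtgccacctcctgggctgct
Zdbf2 (chr1:63273184-63273243, plus strand): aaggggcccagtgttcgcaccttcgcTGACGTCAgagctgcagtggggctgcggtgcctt
Zwint (chr10:72654797-72654845, plus strand): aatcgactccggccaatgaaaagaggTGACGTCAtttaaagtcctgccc

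The element begins 48 bases before the start in Sst, 45 in Th, 28 in Kctd8, 59 in Zdbf2 and 23 in Zwint. RefSeq promoters, from 250 bases before to 50 bases after a start, were found for 174 of the 244 genes, 229 promoters in all. The letters TGACGTCA, which read the same on both strands, occurred in 7 of them (3.06%), against 2.90% of the promoters of all genes tested and 1.79% of all promoters. The other 2 matches were in Peg3 and in its neighbour Usp29. Their windows overlap and hold the same copy of the letters, which is therefore counted in both. A homeodomain core, TAATTA, also the same on both strands, occurred in 5 of the 229 (2.18%), against 2.70% of promoters of genes tested and 5.29% of all; the holders were Gabrg1, Mgat4c, Myh4, Myh8 and Vps41. Both shares among the 244 lay near those of all genes tested, and a match describes letters in a window only. Kctd8 stood at 43.0, 64.4 and 83.7 CPM (lowest, median and highest of the 6 SST libraries) against at most 21.4 in PV replicate 2, and Zwint at 828, 911 and 1059 CPM against at most 572 in PV replicate 5. Th was far lower, at 6.01, 9.74 and 14.0 CPM against at most 3.31 in PV replicate 3, with no read in EXC.

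The 244 genes above all 18 were 1.64% of the genes tested, and the 12 below were 0.0806%. The same rule applied to the other sorts gave 594 above and 238 below for EXC, 154 and 1089 for PV, and 373 and 183 for VIP, so SST had the fewest genes below. Part of this split follows the scaling: with TMM 169 genes lay above and 31 below, and with mitochondrially encoded reads left out of the total 182 lay above and 30 below. Of the 244, 151 (1.01% of genes tested) lay above all 18 on all of these 3 scales. In an edgeR quasi-likelihood test of SST against the mean of EXC, PV and VIP, 1740 genes were higher (11.7%) and 1340 lower (9.00%) at a Benjamini-Hochberg adjusted p under 0.05, and the 244 included 242 of those higher. With the 18 entered as 1 group 375 were higher and 423 lower, and DESeq2 called 2025 lower. That overlap follows from the rule, which reads the same counts. Higher than each of EXC, PV and VIP by 3 separate tests were 257 genes (1.73%), 175 of them among the 244, and lower than each were 147 (0.987%), all 12 genes below among them. With the pool as a covariate these counts were 806 and 569, of which 106 and 39 were shared.

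Most of the gaps were narrow. The lowest SST library exceeded the highest other library by at least 1.1-fold in 184 of the 244 genes, 1.5-fold in 78, 2-fold in 41 and 4-fold in 11, with a median of 1.25-fold. The library that came nearest was an EXC library for 98 genes, a VIP library for 81 and a PV library for 65, and PV replicate 5 alone for 34. Just inside the rule, Gnptab had a lowest SST level of 95.6 CPM against 95.5 in EXC replicate 6, and just outside, Cers6 and Osbpl8 had 304 and 301 CPM against 304 and 302. In 4 of the 244 genes the lowest SST level was under 1.94 CPM, the level of 3 reads in the smallest library. Inside POOL7098, 229 of the 244 were higher in SST than in VIP, where 20.6% of the genes tested were. The rule already fixes this direction, so nothing is read from that count. With the pool as a covariate, 172 of the 242 called genes stayed called.

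**Figure D1:**
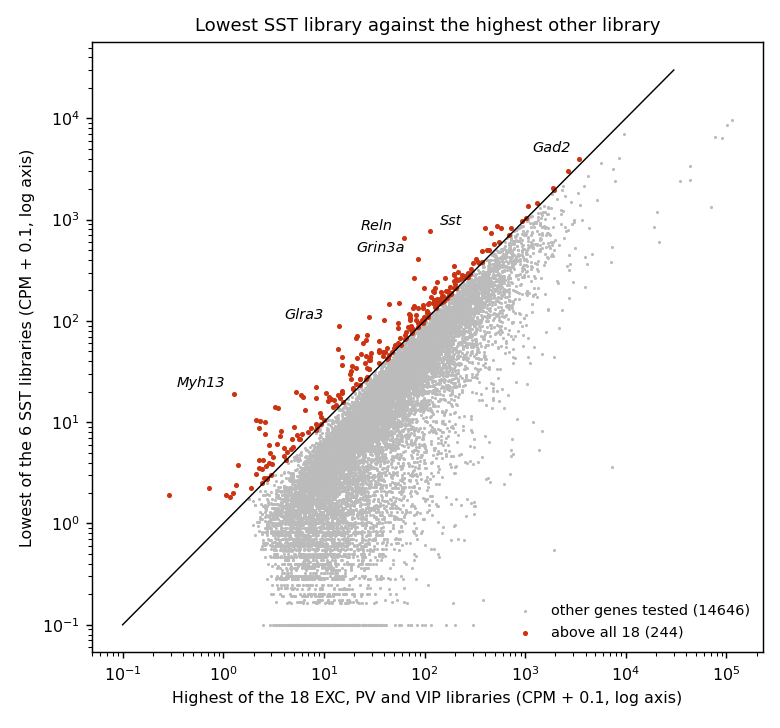
Each point is a gene tested, with its highest level among the 18 EXC, PV and VIP libraries on the horizontal axis and its lowest level among the 6 SST libraries on the vertical axis, both in CPM + 0.1 on log axes. The 244 genes above all 18 (red) lie above the line of equal levels, most of them close to it, and of the genes named on the plot Myh13, Reln, Sst and Glra3 stand farthest off.

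Sst itself stood at 778, 1300 and 1739 CPM (lowest, median and highest of 6 libraries) in SST. Its range was 7.23 to 77.7 CPM in EXC, 6.54 to 112 in PV and 0.129 to 18.3 in VIP. The groups did not overlap, and the lowest SST library, replicate 5, stood 6.93-fold above the highest other, PV replicate 4. The log2 fold change against the mean of the other sorts was 5.89 ± 0.47 (adjusted p = 2.43e-10; values after ± are standard errors throughout), and the difference was smallest against PV, 4.18 ± 0.68, and larger against EXC, 5.50 ± 0.72. Per transcript length, in the authors' RPKM, Sst had the highest SST median of the 244 genes with 1193, followed by Gad2 with 462, Vamp2 with 360, Syt1 with 330 and Npy with 203.

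The other peptide genes private to SST were Pdyn, Npy, Nts and Nppc, so that 5 of 24 tested genes listed as neuropeptide precursors (20.8%, against 1.64% of all genes) lay above all 18. Of the 24, 17 were higher than the mean of the other sorts (70.8%, against 11.7%) and 2 lower (8.33%, near 9.00%), with a median log2 fold change of 1.84. The list also holds Nxph1, the gene of a neurexin ligand, and its relative Nxph2, and both are among the 17. Pdyn, which encodes prodynorphin, the source of the kappa opioid peptides, stood at 151, 189 and 278 CPM in SST, at 14.2 to 56.3 in EXC and at no more than 6.95 in PV and 0.932 in VIP. The nearest libraries of Pdyn were therefore all EXC, and its log2 fold change was 2.26 ± 0.34 against EXC, 5.93 ± 0.46 against PV and 8.55 ± 0.52 against VIP. Npy, neuropeptide Y, stood at 134, 224 and 288 CPM in SST against at most 85.7, in VIP replicate 4 (2.18 ± 0.23 against the mean, adjusted p = 6.89e-08). Nts, neurotensin, stood at 8.17, 14.4 and 18.3 CPM against at most 3.62 in EXC replicate 4. Nppc, the C-type natriuretic peptide, was just inside with 8.35 CPM in the lowest SST library against 8.17 in PV replicate 5, and lost this place with TMM or without mitochondrial reads. Cort, cortistatin, the close relative of somatostatin, stood just outside: its lowest SST library had 10.3 CPM and PV replicate 4 had 10.9 (2.64 ± 0.33 against the mean, adjusted p = 9.81e-07, and 0.187 with the pool as a covariate). Pnoc, the nociceptin precursor, at 9.88 to 21.7 CPM in SST and 21.3 to 54.3 in VIP, did not pass the test (adjusted p = 0.248).

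Of the somatostatin receptor genes, Sstr1 was private to SST. It stood at 65.2, 79.9 and 123 CPM in SST, 17.0 to 26.3 in EXC, 0.430 to 6.56 in PV and 6.68 to 11.5 in VIP. The log2 fold change was 3.25 ± 0.22 against the mean (adjusted p = 9.82e-12) and smallest against EXC, 1.90 ± 0.28. Sstr2, at 2.13 to 5.26 CPM in SST, did not pass (log2 fold change -0.17, adjusted p = 0.851). Sstr3 was higher than the mean by 0.84 ± 0.30 (adjusted p = 0.0473), with its highest levels in EXC, and this call was lost in 13 of the 24 refits that each left out 1 library. Sstr4 fell by 1.82 on the log2 scale (adjusted p = 1.90e-05), with 2.73 to 4.90 CPM in SST against as much as 22.3 in VIP, but had 0.08 (adjusted p = 0.970) with the pool as a covariate.

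Among 31 tested receptors and binding proteins of other peptides, 8 lay above all 18 (25.8%, against 1.64% of all genes tested). Higher than the mean were 18 (58.1%, against 11.7%) and lower 4 (12.9%, against 9.00%). Rxfp3, the relaxin-3 receptor, stood at 18.3, 28.3 and 46.2 CPM in SST against at most 5.81 in PV replicate 6 (4.06 ± 0.36, adjusted p = 1.59e-09). Crhbp, which binds and sequesters corticotropin-releasing hormone, stood at 117, 141 and 187 CPM, against 35.5 to 69.4 in PV and no more than 3.89 in EXC and 2.10 in VIP. Its PV libraries thus lay between SST and the other sorts. The difference from PV alone did not pass (0.90 ± 0.38, adjusted p = 0.0796), nor did the contrast with the 18 as 1 group (adjusted p = 0.159). The opioid receptors of the mu and kappa types were both private: Oprm1 stood at 51.0, 63.1 and 71.4 CPM against at most 35.1 in VIP replicate 4, and Oprk1 at 18.6, 27.6 and 43.6 CPM against at most 13.7 in EXC replicate 5. Nmbr, the neuromedin B receptor, had a lowest SST level of 12.2 CPM against at most 9.08 in EXC, and Galr1, the galanin receptor, at 3.88 to 9.79 CPM against at most 2.75 in VIP with no read in PV. Tacr1, the receptor of substance P that marks the long-range nitric oxide cells, stood at 20.4, 45.4 and 65.9 CPM against at most 14.9 in PV replicate 3. Oxtr, the oxytocin receptor, stood at 34.1, 64.2 and 72.0 CPM against at most 26.9 in PV replicate 4. Tacr1 and Oxtr lost their place above all PV libraries with TMM scaling or without mitochondrial reads, while the other 6 kept it. Adcyap1r1, the receptor of the peptide PACAP, did not pass (-0.08, adjusted p = 0.768).

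Many genes known from the somatostatin class were private: 15 of 29 tested SST interneuron markers lay above all 18 (51.7%, against 1.64% of all genes tested). Of the 29, 26 were higher than the mean (89.7%, against 11.7%) and 2, Kit and Etv1, lower (6.90%, against 9.00%). These markers come from studies of the same cell class and were listed with results of these data known, so their count is no independent evidence. Reln, which encodes the secreted matrix protein reelin, stood at 664, 730 and 935 CPM in SST and at 15.2 to 62.5 CPM over the 18 others, a gap of 10.6-fold. Reelin was even across the SST libraries, and its log2 fold changes against EXC, PV and VIP, 4.63 ± 0.22, 3.76 ± 0.21 and 3.80 ± 0.21, were of like size. Calb1, calbindin, stood at 290, 426 and 502 CPM against at most 196 in EXC replicate 1, and at no more than 8.39 in VIP. Nos1, neuronal nitric oxide synthase, stood at 241, 301 and 532 CPM against at most 133, in EXC replicate 5 (2.27 ± 0.17, adjusted p = 7.14e-11). Chodl, chondrolectin, the marker of the long-range cells, stood at 14.0, 15.9 and 20.4 CPM against at most 3.20 in EXC replicate 3, with no read in any PV library; its adjusted p was 1.29e-06, and 1.00 with the pool as a covariate. Hpse, heparanase, had 2.42 to 10.4 CPM against at most 2.32 in VIP replicate 1 and did not stay above all 18 with TMM scaling.

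**Figure D2:**
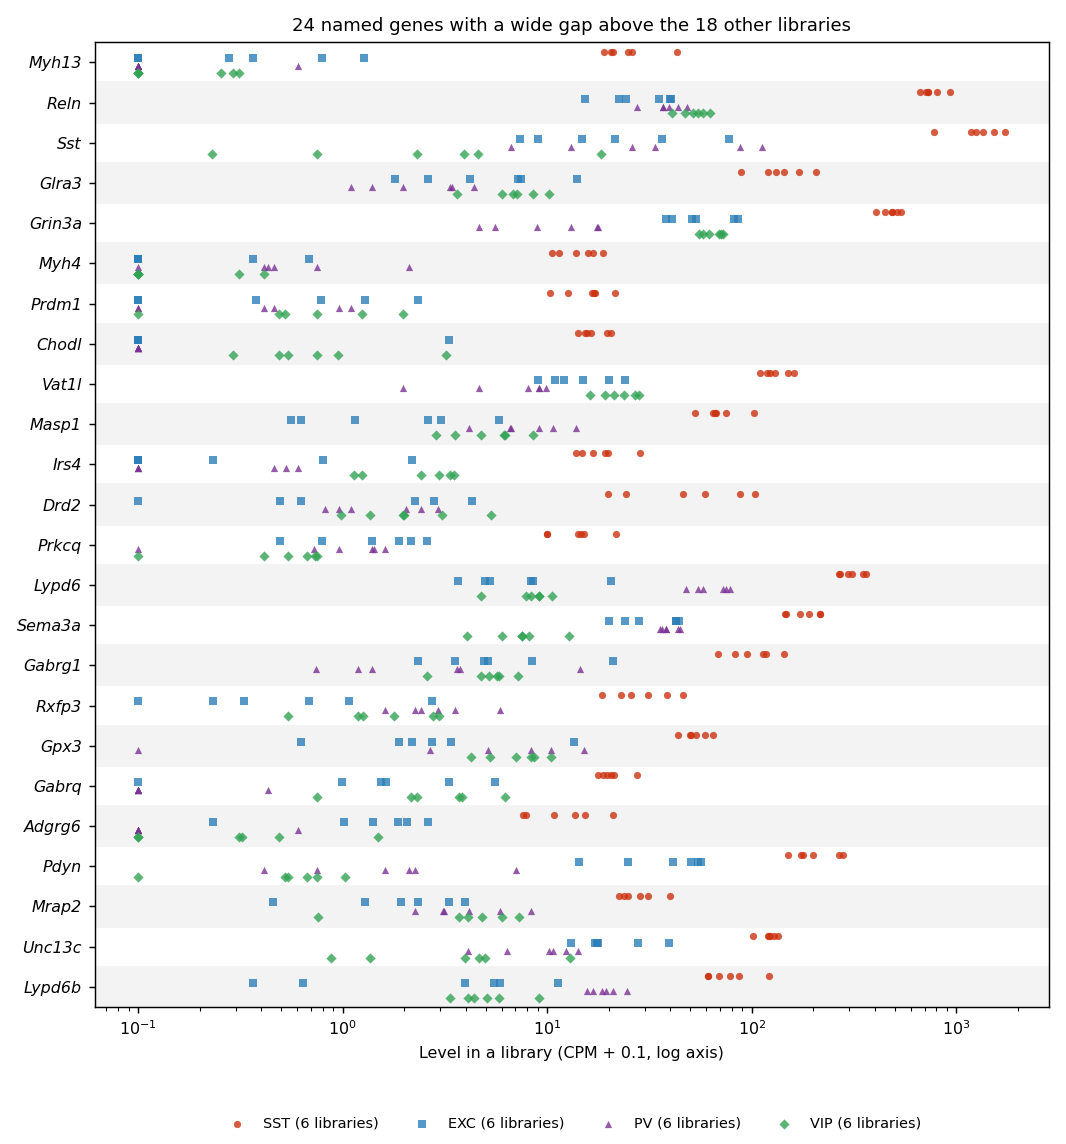
Levels in each of the 24 libraries (CPM + 0.1, log axis) for 24 of the 25 named genes with the widest gap between the lowest SST library and the highest other library, ordered from the widest. Each point is 1 library; the SST points (red) lie right of all others in every row, while the sort that comes nearest changes from gene to gene, EXC for Pdyn, PV for Lypd6 and VIP for Vat1l.

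The widest gap of all belonged to a myosin gene. Myh13, a myosin heavy chain known from extraocular muscle, stood at 18.9, 22.7 and 42.9 CPM in SST and at no more than 1.18 CPM, or 10 reads, in any other library, a gap of 16.1-fold (7.35 ± 0.42, adjusted p = 4.84e-13). Its neighbours on chromosome 11, Myh4 and Myh8, were also above all 18. Myh4 stood at 10.4, 14.8 and 18.7 CPM against at most 2.01 in PV replicate 1, with adjusted p = 3.79e-10, and 1.00 with the pool as a covariate. Myh8 stood at 2.66 to 8.53 CPM against at most 2.63 in EXC replicate 6, with no read in VIP. Myosin heavy chain genes are near-identical copies in places, so the division of reads among these 3 genes is uncertain.

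Several private genes encode receptors and channel subunits for fast transmitters. Glra3, the alpha 3 subunit of the glycine receptor, stood at 88.4, 138 and 205 CPM in SST against at most 13.9 in EXC replicate 5 (4.66 ± 0.26, adjusted p = 2.53e-13). Gabrg1 and Gabrq, the gamma 1 and theta subunits of the GABA-A receptor, stood at 68.1, 104 and 143 CPM against at most 20.8, and at 17.5 to 27.4 CPM against at most 6.10. They were 2 of 15 tested GABA receptor genes, of which 5 were higher and 3, Gabrb2 and Gabbr2 among them, lower. Grin3a, an NMDA receptor subunit that lowers calcium entry, stood at 406, 484 and 534 CPM. Its highest other level was 86.0 CPM in EXC replicate 5, VIP reached 72.1 and PV 17.6 (3.56 ± 0.18, adjusted p = 5.24e-14). The kainate receptor Grik3 stood at 265, 362 and 454 CPM against at most 158 in EXC replicate 6. Of 23 tested glutamate receptor genes 3 lay above all 18 (13.0%). Of the 23, 10 were higher (43.5%) and 2 lower (8.70%, near the 9.00% of all genes tested). Chrna2, the nicotinic subunit of a deep-layer Martinotti type, stood at 5.64 to 13.1 CPM against at most 4.87 in EXC replicate 6, with adjusted p = 3.30e-08, and 0.228 with the pool as a covariate.

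Lypd6 and Lypd6b, small proteins of the Ly6 family that modulate nicotinic receptors, are neighbours on chromosome 2 and had like patterns. Lypd6 stood at 266, 301 and 362 CPM in SST, 47.8 to 78.4 in PV, 3.58 to 20.5 in EXC and 4.64 to 10.5 in VIP. Lypd6b stood at 61.0, 73.7 and 121 CPM in SST and no more than 24.5 in PV, with EXC and VIP no higher than 11.2. PV came second in both.

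In raw CPM 4.05% of potassium channel genes and 2.94% of sodium and calcium channel genes were private, against 1.64% of all genes tested. These shares are 3 genes and 1 gene. On all 3 scales 1 potassium channel gene, Kcna5, and no sodium or calcium channel gene stayed above all 18. Of all genes tested 1.01% did. Of 74 tested potassium channel genes 3 lay above all 18 (4.05%), with 22 higher and 20 lower than the mean, and of 34 sodium and calcium channel genes 1 did (2.94%), with 14 higher and 6 lower. Both the 22 and the 20 are larger shares than the 11.7% higher and 9.00% lower of all genes tested. So are the 14 and the 6 (41.2% and 17.6%). Kcna5 stood at 2.99 to 8.57 CPM, with a median of 0.685 CPM in PV, the highest median of the other sorts. Kcna3, Kcnk2 and the calcium channel subunit Cacnb4 had gaps that turned negative with TMM scaling, at log2 values of -0.11, -0.41 and -0.35. Against PV alone, Kcnk2 and Cacnb4 did not pass (adjusted p = 0.810 and 0.246). Kcnma1, the large-conductance calcium-activated channel, did not pass (0.20 ± 0.14, adjusted p = 0.326).

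In signalling inside the cell, 5 of 54 tested genes of cyclic nucleotide and G protein pathways lay above all 18 (9.26%, against 1.64% of all genes tested). Of the 54, 23 were higher (42.6%, against 11.7%) and 8 lower (14.8%, against 9.00%). Rgs17 and Rgs20, which speed the switching off of G proteins, stood at 741, 1067 and 1215 CPM against at most 462, and at 43.9, 63.8 and 101 CPM against at most 28.4, the nearest library being VIP replicate 6 in both. Prkcq, protein kinase C theta, stood at 9.87, 14.2 and 21.7 CPM against at most 2.50 in EXC replicate 6. Irs4, an adaptor of insulin receptors, stood at 13.8, 17.9 and 28.3 CPM against at most 3.39 in VIP replicate 4. Mrap2, an accessory protein of melanocortin receptors, stood at 22.3, 26.5 and 39.9 CPM against at most 8.28 in PV replicate 3 (2.86 ± 0.29, adjusted p = 3.12e-08, and 0.0706 with the pool as a covariate). Adgrg6, an adhesion receptor, stood at 7.55 to 20.9 CPM against at most 2.50 (adjusted p = 0.0567 with that covariate).

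Release genes gave 2 kinds of result. Unc13c, a presynaptic priming protein, stood at 101, 122 and 134 CPM against at most 39.4 in EXC replicate 2 (3.39 ± 0.29, adjusted p = 1.13e-09). Syt1, Syt4 and Vamp2, which are shared by most neurons, were above all 18 by small gaps only. Syt1 stood at 2996 to 3593 CPM against at most 2638 in VIP replicate 4, and Vamp2 at 1461 to 1779 CPM against at most 1297 in PV replicate 5. Against PV alone, Vamp2 did not pass (0.03 ± 0.13, adjusted p = 0.905). With TMM scaling none of these 3 stayed above all 18. Gad2, the GABA synthesis enzyme at terminals, stood at 3984, 5093 and 5497 CPM against 2570 to 3414 in VIP and 1209 to 2213 in PV, and its log2 gap went from a positive value to -0.01 with TMM. Gad1, the other GABA synthesis enzyme, did not separate: 704 to 1160 CPM in SST lay inside the range of PV and partly that of VIP.

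Transcription factors of neuron identity included 7 of 62 tested genes above all 18 (11.3%, against 1.64% of all genes tested) and 1 below. Higher than the mean were 36 (58.1%, against 11.7%) and lower 6 (9.68%, near the 9.00% of all genes). Satb1, a chromatin organiser needed for somatostatin cell maturation, stood at 865, 1048 and 1204 CPM in SST, 274 to 523 in PV and no more than 118 in EXC and 78.2 in VIP (2.70 ± 0.10, adjusted p = 1.21e-16). Lhx6, a factor of the medial ganglionic eminence lineage, stood at 176, 211 and 249 CPM against 70.4 to 149 in PV and no more than 3.41 in EXC and 1.91 in VIP. Its difference from PV alone did not pass (0.56 ± 0.29, adjusted p = 0.163), nor did its contrast with the 18 as 1 group (adjusted p = 0.272). Both factors were thus second highest in PV. Of 11 tested genes of that lineage 9 were higher than the mean (81.8%, against 11.7% of all genes tested) and none lower. Klf5 stood at 26.4, 48.7 and 62.3 CPM against at most 18.7, in PV replicate 5. Tox stood at 44.9, 70.6 and 85.5 CPM against at most 38.9 in EXC replicate 4. Prdm1, a zinc finger repressor known from plasma cells, stood at 10.3, 16.6 and 21.2 CPM against at most 2.23 in EXC replicate 1 (4.49 ± 0.45, adjusted p = 1.73e-08, and 0.0583 with the pool as a covariate). Tshz3 was above all 18 in CPM, at 84.1 to 127 against at most 71.6, but not with TMM.

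Axon guidance, cadherin and matrix genes had private shares of 6.56%, 4.00% and 7.14% in raw CPM, against 1.64% of all genes tested. The cadherin share is 1 gene and says nothing of the family. Plxnc1, Hpse and Spon1 were not above all 18 on all 3 scales. That left 3 axon guidance and 3 matrix genes, where 1.01% of all genes tested stayed above. Of 61 tested axon guidance genes 4 lay above all 18, with 19 higher and 10 lower (31.1% and 16.4%). Of all genes tested 11.7% were higher and 9.00% lower. Sema3a, a secreted repellent of axons, stood at 146, 182 and 215 CPM against at most 44.7 in PV replicate 3, with VIP no higher than 12.7 (2.86 ± 0.16, adjusted p = 3.46e-13). Unc5d, a netrin receptor, stood at 192, 238 and 290 CPM against at most 125, and Efna5, an ephrin, at 84.7, 98.1 and 103 CPM against at most 54.6, both in PV replicate 5. Cdh13, an anchored cadherin, was the 1 private gene of 25 tested cadherins and protocadherins, at 210, 222 and 260 CPM against at most 126. Of 70 tested matrix genes 15 were higher and 14 lower, and 5 lay above all 18, among them Reln and Col25a1, a membrane collagen, at 143, 199 and 260 CPM against at most 97.0 in EXC replicate 3 (2.35 ± 0.24, adjusted p = 2.47e-08, and 0.0696 with the pool as a covariate). Masp1, a protease of the lectin complement pathway, stood at 52.6, 66.4 and 103 CPM against at most 13.8 and overlaps its neighbour Rtp4, and Gpx3, a secreted glutathione peroxidase, at 43.7, 52.0 and 64.2 CPM against at most 15.0 (adjusted p = 0.224 with that covariate). Vat1l, of the quinone oxidoreductase type, stood at 110, 126 and 161 CPM against at most 28.0 in VIP replicate 4.

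A second set of private genes is known from striatal projection neurons, not from cortical somatostatin cells. Of 19 tested striatal markers 10 lay above all 18 (52.6%, against 1.64% of all genes tested). Higher than the mean were 17 (89.5%, against 11.7%) and none was lower, with a median log2 fold change of 3.45. This list, too, was written with results of these data known, so its counts are no independent evidence. Drd2, the D2 dopamine receptor, stood at 19.8, 52.6 and 104 CPM in SST against at most 5.22 in VIP replicate 4. Ppp1r1b, which encodes DARPP-32, stood at 38.1, 147 and 377 CPM against at most 25.3 in EXC replicate 6. Adora2a, an adenosine receptor, stood at 4.13, 24.5 and 62.2 CPM against at most 2.37. Pde10a, Rgs9, Six3, Isl1, Syndig1l and Gpr52 were among the others, and all 10 were above all 18 on the 3 scales.

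These genes had a wider median spread between the SST libraries than the somatostatin class markers, with ranges that overlapped. The highest SST library exceeded the lowest by 2.50-fold to 15.1-fold, with a median of 5.17, over the 10 striatal genes, against 1.32-fold to 4.32-fold, with a median of 1.73, over the 15 private SST markers, and a median of 1.51 over the 244 genes. Drd2 stood at 87.2, 59.0, 104, 19.8, 46.2 and 24.2 CPM in replicates 1 to 6. Replicates 1 and 3 were high, and replicates 4 and 6, the 2 female libraries, low. Summed over the 20 listed striatal genes, replicates 1 to 6 had 2951, 1878, 3623, 808, 1653 and 1016 CPM, against 422 to 538 in EXC, 192 to 269 in PV and 663 to 951 in VIP. Replicate 4 thus lay inside the VIP range by this sum. Sst did not follow that order, with 1344, 1522, 1739, 1255, 778 and 1182 CPM. Reln did not either, with 664, 730, 710, 807, 730 and 935 CPM. Some private SST markers did: Nos1 and Tacr1 were highest in replicates 1 and 3 and lowest in 4 and 6. Nos1 stood at 510, 305, 532, 260, 298 and 241 CPM, and Tacr1 at 64.7, 48.3, 65.9, 25.8, 42.5 and 20.4 CPM. Th, and Ankrd63, which is shared with EXC, had the same highest and lowest replicates. Fewer striatal cells and less RNA of the striatal genes per cell cannot be told apart in bulk libraries. The part of tissue, sort or sex in this order was not tested. Without replicates 1 and 3, a choice made after seeing these sums, 25 genes lay below all 18, 797 were lower than the mean and 85 lower than each sort. The count below all 18 can only stay or rise when libraries are left out.

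**Figure D3:**
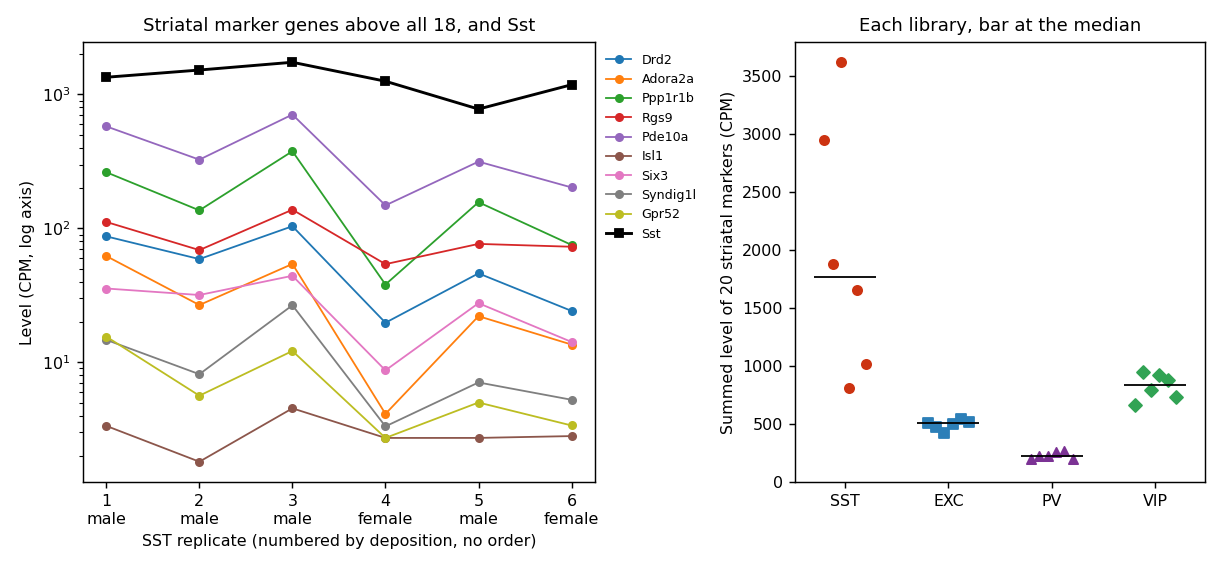
Left, levels of 9 striatal marker genes above all 18 and of Sst in the 6 SST libraries (CPM, log axis), each line joining the values of 1 gene. Right, the summed level of 20 striatal markers in CPM, 1 point per library with a bar at the median of the sort: SST spreads from 808 to 3623 CPM, and no library of another sort is above 951.

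Private genes also lay next to each other in the genome; these groups were picked with their values in view. Peg3, Peg3os, Usp29 and Zim3 lie side by side in an imprinted cluster on chromosome 7, where only the copy from 1 parent is active. Peg3, a zinc finger gene, stood at 1358, 1796 and 1965 CPM in SST, 807 to 1075 in VIP, 376 to 707 in PV and 412 to 552 in EXC (1.28 ± 0.09, adjusted p = 4.19e-11). Usp29 stood at 376, 394 and 429 CPM against at most 302, and Zim3 at 151, 157 and 178 CPM against at most 124, both in VIP. Peg3os lies inside Peg3 and Zim3 overlaps Usp29, and without a stated strand setting their reads cannot be told apart. Of other imprinted genes, Ndn stood at 210, 248 and 429 CPM against at most 97.6, Plagl1 at 101, 180 and 221 CPM against at most 71.0, Peg10 at 138, 186 and 224 CPM against at most 126, Zdbf2 at 177, 208 and 235 CPM against at most 152, and Dlk1 at 27.7, 37.6 and 61.5 CPM against at most 26.4. VIP was the nearest sort for all of these except Dlk1, where it was EXC. Dlk1 was not above all 18 with TMM scaling, and its difference from EXC did not pass (1.72 ± 0.70, adjusted p = 0.0517). Plagl1 and Zdbf2 had adjusted p of 0.401 and 0.118 with the pool as a covariate.

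On chromosome 19, the interferon-induced genes Ifit2, Ifit3, Ifit1bl1 and Ifit1bl2 were neighbours above all 18. Ifit2 stood at 44.7, 60.5 and 70.9 CPM in SST, with medians of 22.7 in VIP, 16.2 in PV and 3.20 in EXC (2.27 ± 0.17, adjusted p = 5.41e-11). The other 3 were lower in level, with SST medians of 10.2, 13.5 and 3.39 CPM, were not above all 18 on every scale, and had adjusted p of 0.0777, 0.113 and 0.271 with the pool as a covariate. Ifit genes are close copies, so their counts are uncertain too. By chromosome, the private share of genes tested was highest on X, with 21 of 492 (4.27%), and on chromosome 10, with 25 of 675 (3.70%).

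Including EXC removed more genes than it left in raw CPM. Above all 12 PV and VIP libraries were 707 genes (4.75%), and 463 of these (3.11%) were not above all 6 EXC libraries. That number was 283 without mitochondrially encoded reads and 298 with DESeq2 size factors. Slc17a7, the marker of the excitatory sort, also had a higher median in SST (48.3 CPM) than in VIP (5.21), and its part in the genes shared with EXC was not tested. Atp2b4, a plasma membrane calcium pump, stood at 269, 296 and 365 CPM in SST and 218, 393 and 556 CPM in EXC, but at no more than 20.7 in PV and 8.77 in VIP. Its difference from EXC did not pass (-0.47 ± 0.25, adjusted p = 0.147), while SST exceeded VIP by 5.53 ± 0.32. Gda, guanine deaminase, had 276, 289 and 318 CPM in SST and 241, 368 and 431 in EXC, and Sv2c, a synaptic vesicle protein, 40.1, 69.2 and 115 CPM and 68.9, 96.7 and 110. Sulf1, a heparan sulfatase, was lower in SST than in EXC, with medians of 10.1 and 20.1 CPM (-0.97 ± 0.39, adjusted p = 0.0497). Pde1a, a calcium-dependent phosphodiesterase, had 318, 491 and 641 CPM in SST and 175, 367 and 485 in EXC. Tunar, a non-coding RNA, Ankrd63 and Hhip had higher medians in SST than in EXC, and 1 or more EXC libraries reached into the SST range. For Hhip, an inhibitor of hedgehog signalling, that was EXC replicate 6 with 15.3 CPM against a lowest SST level of 13.6 in replicate 6, and SST exceeded EXC by 2.87 ± 0.41 (adjusted p = 3.26e-06).

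The PV libraries removed 236 genes (1.58%) that lay above all 12 EXC and VIP libraries, and the VIP libraries 474 (3.18%) that lay above all 12 EXC and PV libraries. The PV group named here was chosen after its values were seen. Sox6, a factor of the medial ganglionic eminence lineage, stood at 206, 219 and 242 CPM in SST and 143, 168 and 241 in PV, against at most 19.6 in EXC and 3.81 in VIP, and its difference from PV did not pass the test (-0.25 ± 0.37, adjusted p = 0.671, in the TMM-scaled fit, against a higher SST median in raw CPM). Nxph1, a secreted neurexin ligand, had 462, 583 and 761 CPM in SST and 305, 422 and 645 in PV (-0.07 ± 0.32, adjusted p = 0.904). Tac1, the substance P precursor, had medians of 108 CPM in SST and 133 in PV, and was lower in SST by the test (-1.10 ± 0.30, adjusted p = 0.00648). Moxd1, an oxygenase, Nxph2, Cacna2d2 and Cartpt also had overlapping SST and PV ranges.

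**Figure D4:**
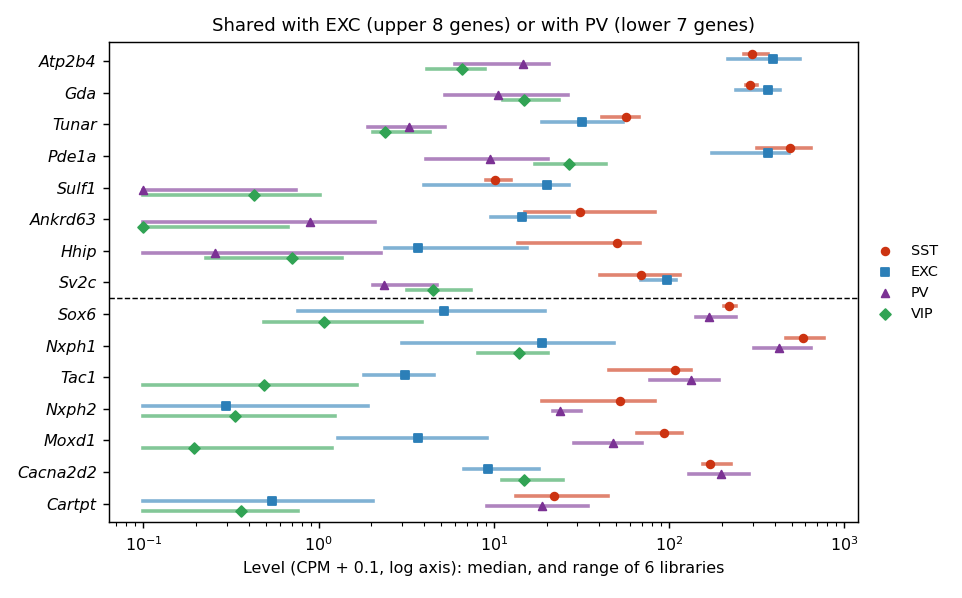
Level in CPM + 0.1 on a log axis, with the median as a point and the range of 6 libraries as a bar for each sort, for 8 genes that EXC keeps from being private to SST (above the dashed line) and 7 that PV does (below it). In the upper 8 the SST and EXC bars overlap and lie above PV and VIP, and in the lower 7 the SST and PV bars overlap and lie above EXC and VIP.

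The 12 genes below all 18 were few, and their gaps were 1.0203-fold to 1.89-fold. The 1.89-fold gap was that of 5830432E09Rik, a gene of low level, and the next widest was 1.34-fold, for Cck. Cck, the cholecystokinin precursor and a marker of another interneuron class, stood at 24.3, 28.9 and 39.9 CPM in SST, against 53.6 to 153 in PV, 102 to 314 in EXC and 138 to 460 in VIP. It fell by 2.89 on the log2 scale (SE 0.29, adjusted p = 1.53e-08), and by 0.73 with the pool as a covariate (adjusted p = 0.171). Nfia, a nuclear factor of late-born neurons and glia, stood at 7.25, 12.9 and 18.1 CPM, against 18.9 to 56.3 in PV, 38.1 to 50.5 in VIP and 238 to 402 in EXC. Tmem108, a membrane protein of dendritic spines, stood at 5.57, 7.55 and 11.1 CPM against 14.2 to 26.7 in VIP and more in the other sorts. Il1rap, the interleukin 1 receptor accessory protein that also organises synapses, stood at 3.79, 4.90 and 6.72 CPM and PV replicate 2, the nearest, at 6.88, while EXC ranged from 92.9 to 301. Srrm4, a splicing factor of neuronal microexons, stood at 48.2, 55.5 and 70.1 CPM against a lowest other level of 83.3 in EXC replicate 5, and VIP held the most with 201 to 296.

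Plxna4, a receptor of class 3 semaphorins, stood at 182, 247 and 306 CPM against 325 to 693 in PV, 392 to 518 in VIP and 794 to 1256 in EXC. Sema3a, a semaphorin of that class, lay above all 18. Klf3, a transcriptional repressor, stood at 26.3, 30.2 and 35.5 CPM against a lowest other level of 45.8, and Ptpre, a phosphatase, at 37.4, 55.9 and 65.9 CPM against 76.2. Ahnak, a large scaffold protein, stood at 8.76, 9.28 and 15.4 CPM against 15.7 in PV replicate 5. Lrrc4, an adhesion protein of excitatory synapses, at 72.6 to 85.1 CPM against 93.6, and Cxxc5, at 14.5 to 21.4 CPM against 23.1, had the smallest changes among those named, -0.91 ± 0.12 and -1.26 ± 0.17. Neither was called with the pool as a covariate (adjusted p = 0.543 and 0.765), and Lrrc4 was no longer below all 18 with TMM. The last gene below was 5830432E09Rik, at 1.21 to 2.05 CPM against a lowest other level of 3.87 in PV.

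**Figure D5:**
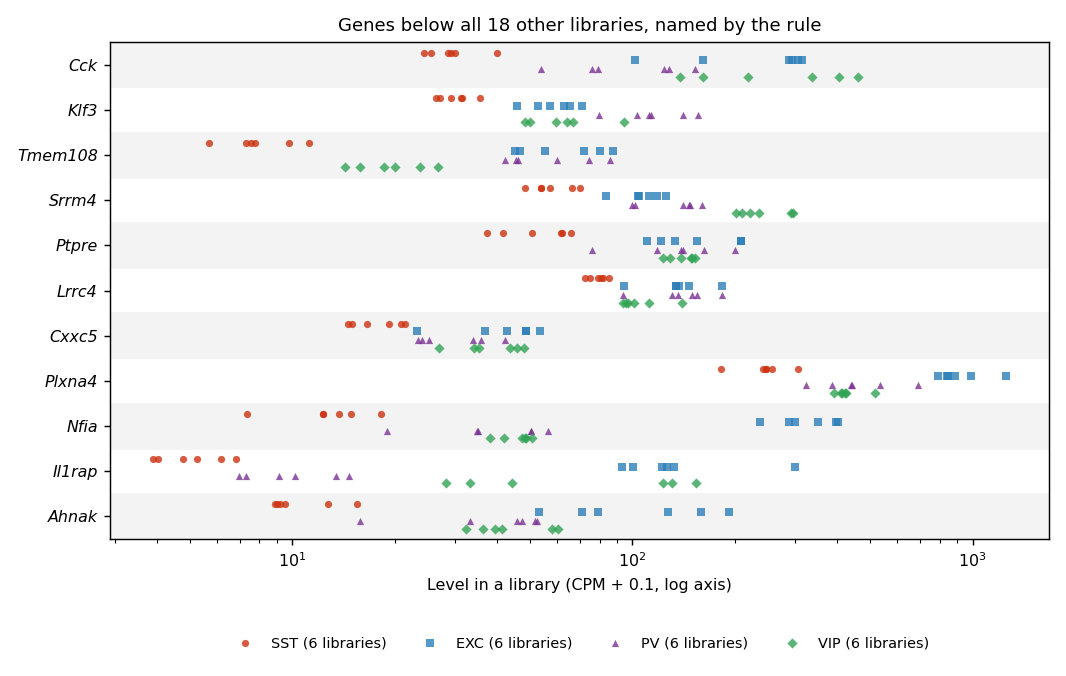
Levels in each of the 24 libraries (CPM + 0.1, log axis) for the 11 named genes below all 18, ordered by gap from Cck. The SST points (red) lie left of all others, with PV next to them for Nfia, Il1rap and Ahnak and VIP next for Tmem108.

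Markers of other brain cells were not among the private genes. None of the 12 astrocyte, 8 oligodendrocyte, 10 microglia, 5 endothelial and 8 mural markers tested lay above all 18 or was higher than the mean. Of them 10, 2, 5, 2 and 1 were lower, where 9.00% of all genes tested were. The astrocyte share was 83.3%, the mural share, 12.5%, was near that of all genes, and the others lay between. With 1.64% of all genes tested above all 18, lists this short would mostly hold none, so nothing is read from that absence. The summed astrocyte level was 277 to 484 CPM in SST, against 415 to 768 in PV, 1328 to 1799 in VIP and 895 to 4913 in EXC. Microglia markers summed to 45.4 to 74.2 CPM in SST and 46.7 to 314 in EXC. Of 24 tested immediate early and stress genes 3 were higher (12.5%, near the 11.7% of all genes tested), 2 lower (8.33%, near 9.00%) and none private. Of 79 nuclear genes of oxidative phosphorylation none was called in either direction, although 6 of 10 mitochondrially encoded genes were lower. Mitochondrially encoded genes summed to 41856 to 75382 CPM in SST, 36685 to 93303 in EXC, 17465 to 159682 in VIP and 137585 to 497680 in PV. Only the PV range thus lay wholly above that of SST.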

How the data were processed

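Per the labels' protocols, sorted neurons gave total RNA that was sequenced as 24 libraries. Reads were aligned by the authors with GSNAP to GRCm38, per the submitters' processing notes; its version, the annotation and the strand setting are not stated there. The deposited counts hold, per the file headers, reads aligned uniquely to a gene model, and the deposited RPKM values are adjusted by size factors of the authors. RPKM served only to compare levels between genes. Symbols and coordinates came from RefSeq for 31049 genes and symbols from GENCODE for 77 more; 5402 genes without a symbol stayed in the fits.

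Counts were filtered with filterByExpr by subtype, scaled by TMM and fitted in edgeR 4.0.16 (R 4.3.3) with terms for subtype and sex over all 24 libraries, after a check on simulated data. The contrast was SST minus the mean of EXC, PV and VIP, plus the 3 pairs; called means a Benjamini-Hochberg adjusted p under 0.05. The standard error is the log2 fold change over the square root of F. A fitted fold change is not given for genes without a read in a whole sort. Levels and the private rule use raw CPM. At the smallest depth 10 CPM equal 15.5 reads. Library pairs within a sort differed beyond sampling noise (chi-square at least 5.576 per degree of freedom over 60 pairs); whether libraries are separate animals is not stated, so p-values measure the spread between libraries, which may be technical.

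Named are the 25 genes with the largest gap above (0.5 CPM added to each level) and 8 lost through EXC. All of these have a symbol, are called and not predicted, and have a mean of at least 10 CPM in SST. Without that SST floor, up to 12 genes below were named, and up to 4 above and 2 below from each of 33 lists. The same holds for up to 1 member of a list that did not pass. Il1rap, Tmem108, Isl1, Kcna5 and Chrna2 are among those with an SST mean under 10 CPM. Cort, Pvalb, Vip, Slc17a7, Gad1, Gad2 and the somatostatin receptors were always eligible, and other genes were named after their values were seen. Some named genes are not reported here. The members and lists were chosen with earlier results of these data known. Alternatives were DESeq2 1.42.0, other scalings and filters, the pool as a covariate, and each library left out.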

Additional observations from a re-analysis of the deposited data

Results flagged for a closer look

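In 130 groups of 6 SST libraries (named genes and marker sums), 6 had 1 library whose distance to the next, as a share of the whole range, passed Dixon's critical value; chance flags about 1 in 20 such groups. Myh13 was at 42.9 CPM in SST replicate 6, with 25.9 next. Spon1, a secreted matrix protein, was at 394 CPM in the same library, with 256 next. Gabrq was at 27.4 CPM in replicate 3, with 21.2 next, and Gad2 was lowest there at 3984 CPM, with 4968 next. Cck was at 39.9 CPM in replicate 4, with 29.9 next. Endothelial markers summed to 13.8 CPM in replicate 1, with 8.89 next.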

How the results depend on the processing

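Raw CPM sets the private counts most. Genes above all 18 numbered 155 with DESeq2 size factors, and genes below numbered 31 with TMM, 30 without mitochondrially encoded reads, 36 with DESeq2 size factors, 20 without SST replicate 5 and EXC replicate 3 and 19 without EXC replicate 3. Leaving libraries out can only keep or raise the count below all 18. Genes lost through EXC numbered 283 without mitochondrial reads and 298 with DESeq2 size factors. With TMM the log2 gap changed sign for Gad2 (-0.01), Tshz3 (-0.02), Syt4 (-0.19), Tacr1 (-0.09), Kcnk2 (-0.41), Kcna3 (-0.11), Cacnb4 (-0.35), Plxnc1 (-0.04), Syt1 (-0.05), Spon1 (-0.02) and, among genes below, Lrrc4 (0.06); without mitochondrial reads it did for Tacr1 (-0.10), Kcnk2 (-0.45), Kcna3 (-0.09), Cacnb4 (-0.29) and Plxnc1 (-0.02). With the 18 entered as 1 group, 375 genes were higher and 423 lower, 16 named calls were lost, and Gad1 (-0.04, adjusted p = 0.982) and Sstr3 (-0.39, 0.826) changed sign. DESeq2 called 2025 lower. With the pool as a covariate 806 genes were higher than each sort (106 shared with 257) and 569 lower than each (39 shared with 147), 20 named calls were lost, and Atp5b (1.48, adjusted p = 0.00367) and Sstr4 (0.08, 0.970) changed sign. Without SST replicates 1 and 3, chosen after seeing the data, 797 genes were lower than the mean, 85 lower than each and 25 below all 18. The cause of these changes was not tested.

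Leaving out each library in turn gave 244 to 328 genes above all 18, 12 to 19 below, 445 to 603 lost through EXC, 1413 to 2136 higher and 926 to 1503 lower than the mean, and 218 to 308 higher and 101 to 161 lower than each. The counts above and below all 18 can only stay or rise when a library is left out. Their ranges therefore cannot show a loss. Named calls lost this way were Sstr3 in 13 refits and Gad1 without SST replicate 4 (0.43, adjusted p = 0.0527). No paired analysis was possible because the labels carry no replicate numbers; those used here were given by accession order and pair nothing. At the smallest depth, in a PV library, 3 reads equal 1.94 CPM, so gaps of genes near that level are not resolved.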
